A study of Mus musculus with 74 samples.

Results

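Levels of 7 Sox transcription factors, Sox4, Sox5, Sox6, Sox9, Sox10, Sox11 and Sox12, were read in 74 single mouse pro-epicardial cells. They were chosen by name from the 30323 genes of the count table, which holds 12 other Sox genes. The cells came from pro-epicardial organs of C57BL/6 embryos at embryonic day 9.5 and carried Tbx18Cre and the mTmG reporter, in which Cre switches the membrane fluorophore from red to green. They were dissociated, sorted by flow cytometry, amplified with SMART-Seq V4 and made into Nextera XT libraries. Tbx18Cre marks cells with a history of Tbx18 expression. Neither an embryo nor a batch is given for any cell. All 74 cells are therefore 1 sample of 1 group, no test between cells was made, and intervals on shares of cells cover only the counting of cells.

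Sox proteins bind DNA through an HMG box, a domain that bends the double helix, and are grouped by the likeness of that box. The SoxE factors Sox8, Sox9 and Sox10 act in cartilage, neural crest and glia, and Sox9 is also known in heart valve and epicardial development. The SoxD factors Sox5, Sox6 and Sox13 lack a transactivation domain of their own and act beside Sox9 in cartilage, while the SoxC factors Sox4, Sox11 and Sox12 are broadly expressed in embryonic progenitors, and Sox4 and Sox11 are needed for the cardiac outflow tract.

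Total counts per cell ran from 216177 to 2618538 with a median of 849718, and levels are given as CPM, a count scaled to a fixed total per cell. Detection of a gene in a cell required at least 5 counts. Clustering without any Sox gene gave 3 cell states. Cluster 1 (32 cells) was left unnamed, was led by Lhx2, Tmem119 and Shisa3, and had 12 of 15 septum transversum markers and 8 of 20 epicardial markers detected in at least 50% of its cells. Cluster 2 (32 cells) was epicardial-like, with 17 of 20 epicardial markers so detected and Tm4sf5, Vwa1 and Lhx9 as leading genes, and it also had 10 of 15 septum transversum markers. Cluster 3 (10 cells) was cardiomyocyte-like, with 11 of 15 cardiomyocyte markers so detected and Coro6, Rgs4 and Myo18b as leading genes, and 9 of 15 septum transversum markers. The median cell held 973986 counts in cluster 1, 762597 in cluster 2 and 796678 in cluster 3.

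Which promoters carry a Sox site was read for the members and for the genes that followed Sox9 most closely, since Sox proteins recognise a short AT-rich core. The sequences are RefSeq windows of 250 bases before an annotated start (GRCm38.p6), and the letters searched on both strands were AACAAAG with its variant AACAATG, then ATCAAAG with the variant ATCAATG, further TACAAAG with the variant TACAATG, and last TTCAAAG with the variant TTCAATG. At least 1 of these stood in 21.8% of all 32851 windows and in 24.3% of 27025 genes. Sox9 and Sox10 had no window and were not searched. Sox4, Sox5, Sox11 and Sox12 had 1 window each and none held a match. Sox6 had 6 windows, all of 1 gene on chromosome 7, and all 6 held a match. The Sox11 window, without a match, and the Sox6 window with the most matches are printed as the 2 ends; capitals mark matches, on either strand, and both run 5′ to 3′ on the gene's own minus strand. A match is a description of letters and not a bound site.

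Sox11 (chr12:27342719-27342968): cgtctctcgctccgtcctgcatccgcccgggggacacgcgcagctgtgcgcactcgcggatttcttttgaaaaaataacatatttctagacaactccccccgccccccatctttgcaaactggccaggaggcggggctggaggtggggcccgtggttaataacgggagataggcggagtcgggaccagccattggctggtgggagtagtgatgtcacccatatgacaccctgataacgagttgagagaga

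Sox6 (chr7:115995087-115995336): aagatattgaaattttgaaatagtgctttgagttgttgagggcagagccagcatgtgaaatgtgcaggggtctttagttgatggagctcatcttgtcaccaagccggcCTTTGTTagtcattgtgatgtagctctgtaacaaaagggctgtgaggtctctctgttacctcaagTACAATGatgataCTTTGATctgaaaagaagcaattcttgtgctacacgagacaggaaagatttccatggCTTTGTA

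The Sox6 window held 4 matches, AACAAAG at 142, TACAATG at 77, ATCAAAG at 64 and TACAAAG at 7 bases before the start. Of the 15 genes most like Sox9 (named with their values further on), 11 had a window and 3 of these, Tm4sf5, Bcar3 and Thsd4, held a match. That share, 27.3%, lay near the 24.3% over all genes. The stretch of 67 bases around each match is shown because these genes follow Sox9 across cells, with the match in capitals.

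Tm4sf5 (chr11:70505024-70505090, plus strand): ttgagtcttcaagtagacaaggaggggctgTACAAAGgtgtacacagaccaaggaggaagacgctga

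Bcar3 (chr3:122483453-122483519, plus strand): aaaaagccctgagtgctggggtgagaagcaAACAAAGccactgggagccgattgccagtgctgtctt

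Thsd4 (chr9:60141327-60141393, minus strand): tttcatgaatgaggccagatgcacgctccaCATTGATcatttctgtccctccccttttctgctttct

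The match lies 220 bases before the start in Tm4sf5, 86 in Bcar3 and 143 in Thsd4, where it is read on the opposite strand. Whether any of these stretches is bound in these cells was not measured.

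Sox9, the master regulator of cartilage, had the widest SD in CPM of the 7 genes and was detected in every epicardial-like cell. The gene (ENSMUSG00000000567) lies on chromosome 11 at 112782224 to 112787760 of GRCm38, with 3 exons in its 1 annotated transcript. It was detected in 54 of 74 cells, or 73.0% (exact 95% interval 61.4 to 82.6%), with a mean of 242 ± 278 CPM (SD over 74 cells), a median of 116 and a highest value of 1222 in cell 38. In cluster 2 it was detected in 32 of 32 cells, and the lowest, median and highest cells held 35.3, 476 and 1222 CPM. In cluster 1 it was detected in 17 of 32 cells, with 0, 8.77 and 680 CPM, and in cluster 3 in 5 of 10 cells, with 0, 5.41 and 79.0 CPM. All but 1 of the cluster 2 cells thus lay above every cluster 3 cell, whereas 10 cells of cluster 1 lay above the lowest cell of cluster 2 and 2 lay above its median.

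The mean of Sox9 was 477 ± 237 CPM in cluster 2 (SD, n = 32 cells), 76.9 ± 158 in cluster 1 (n = 32 cells) and 18.1 ± 26.1 in cluster 3 (n = 10 cells). Against all other cells, cluster 2 was 7.58-fold higher. Leaving out cell 5, the highest of cluster 3, lowered that cluster's mean to 11.4 CPM. The 2 cells of cluster 1 above the cluster 2 median were cell 56 with 680 CPM and cell 73 with 536 CPM. Both lacked Lhx9, a LIM homeobox factor that leads cluster 2, at 0 counts, and held Wt1, the Wilms tumour factor of the epicardium, at 27.4 and 31.2 CPM against a cluster 2 mean of 162 ± 66.9. At the other end of cluster 2, cell 33 had 35.3 CPM of Sox9, cell 9 had 126 and cell 50 had 146. Cell 33 kept Wt1 at 101 CPM and Lhx9 at 167 CPM, while cell 9 had 0 counts of Lhx9, Scx and Itga4. These 5 cells were picked out after their values were seen.

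**Figure D1:**
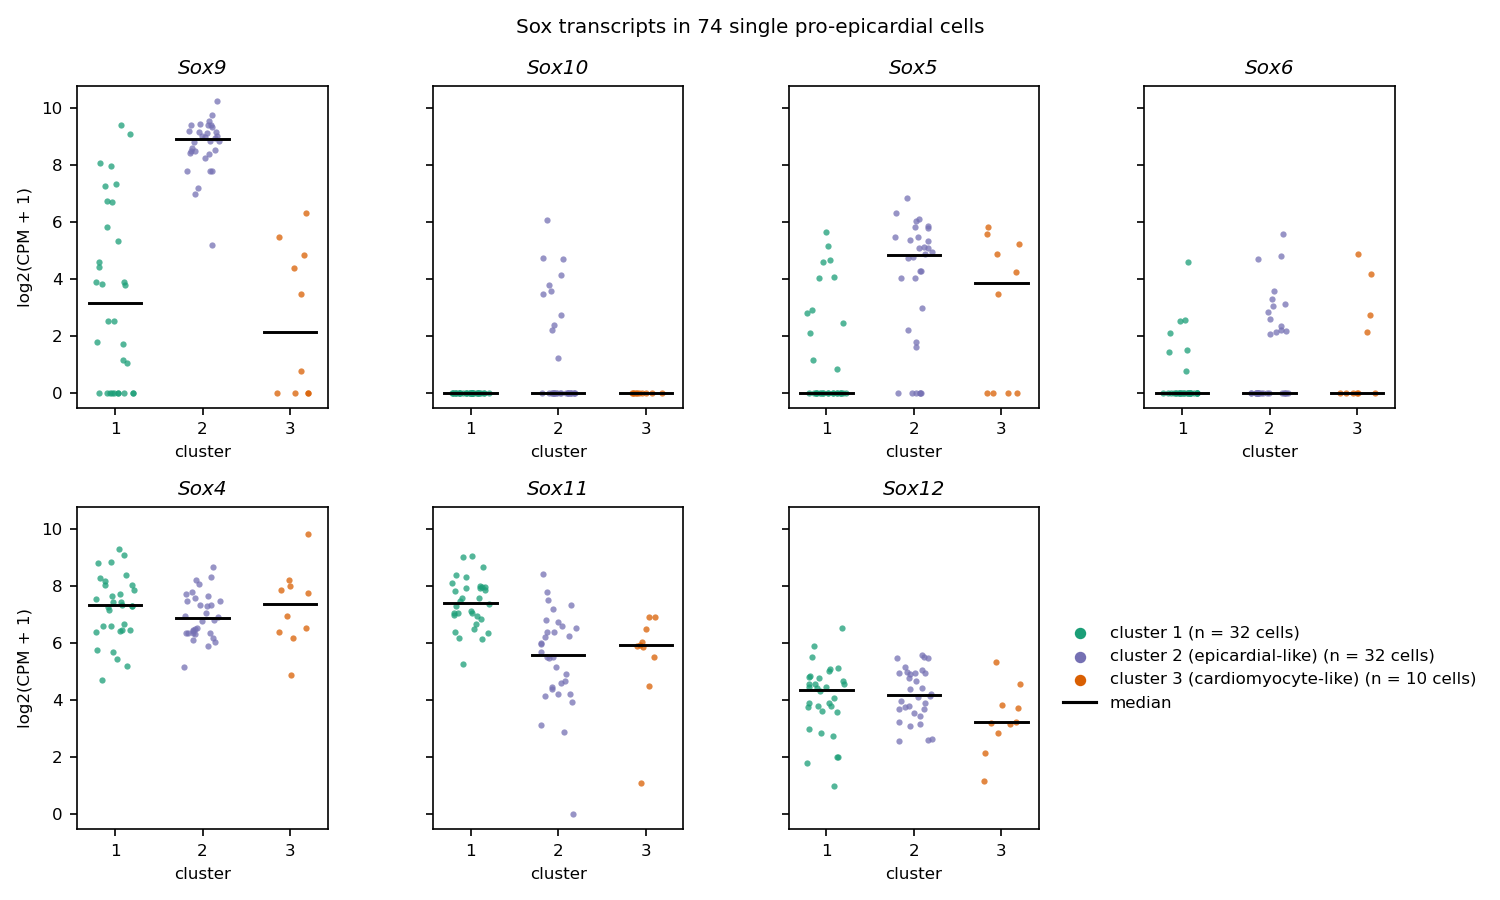
Levels of the 7 Sox genes, as log2(CPM + 1) on the vertical axis, in the 3 clusters on the horizontal axis; each point is 1 cell and the black bar is the median. Sox9 is detected in all cells of cluster 2, with a lowest value of 35.3 and a median of 476 CPM, and Sox10 is above 0 only there. Sox11 has its highest median in cluster 1, and Sox4 overlaps in all 3.

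Sox10, the SoxE factor that specifies neural crest derivatives and glia, was a rare transcript confined in these 74 cells to cluster 2. It lies on chromosome 15 at 79154908 to 79165240 on the minus strand (ENSMUSG00000033006). It was detected in 8 of 74 cells, or 10.8% (4.78 to 20.2%), all of them in cluster 2, and 3 further cells of cluster 2 held 1 count each. The 8 cells held 94 counts (cell 1), 65 (cell 70), 40 (cell 20), 13 (cell 27), 9 (cell 72), 8 (cell 55), 6 (cell 79) and 5 (cell 68). No count was found in the 42 cells outside cluster 2, so up to 7.14% of such cells could hold it. Cell 1 held 66.1 CPM, and without it the cluster 2 mean fell from 5.68 to 3.73 CPM.

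All 8 cells with Sox10 also had Sox9, between 305 and 747 CPM. Over the 74 cells, 46 had Sox9 without Sox10, none had Sox10 without Sox9 and 20 had neither, where independence would put both in 5.84 cells. Because every cell of cluster 2 had Sox9, the pairing inside that cluster could not have come out otherwise. Sox10 counts were 1.02 to 19.7% of the Sox9 counts of the same cell. The annotated transcripts of the 2 genes share 25 stretches of 31 bases, 0.609% of those of Sox9 and 0.822% of those of Sox10, and how such reads were divided was not tested.

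Sox5 was detected in all 8 cells with Sox10, against 3.89 expected over the 74 cells and 5.5 expected within cluster 2. Erbb3, the neuregulin receptor whose gene Sox10 is reported to activate in glia, was detected in 6 of the 8, against 3.25 expected within cluster 2, where 13 of 32 cells had it. Mbp, the myelin basic protein, was detected in 4 of the 8 against 3.75 expected, and Ednrb, the endothelin receptor of crest cells, in 8 against 6.25. Only 8 cells stand behind each of these counts. The expected numbers take no account of depth, and these 8 cells held 452857 to 2618538 total counts, against a cluster 2 median of 762597. Within cluster 2 the rho of Sox10 with total counts was 0.10. The part of depth in these overlaps was not tested. The neural crest genes Tfap2a, Tfap2b, Pax3, Foxd3, Ngfr and Ret reached 5 counts in 0 of 74 cells, which allows up to 4.05% of cells at that threshold. At 1 count Tfap2a was found in 22 cells, Ngfr in 13, Tfap2b in 7, Pax3 in 6 and Foxd3 and Ret in 0. Other listed crest genes were detected widely, Snai2 in 57 cells, Ets1 in 50 and Crabp1 in 21. The 8 cells held Wt1 at 80.8 to 199 CPM, Tcf21, a bHLH factor of epicardial and fibroblast lineages, at 137 to 780 CPM, and Lhx9 at 94.9 to 420 CPM.

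**Figure D2:**
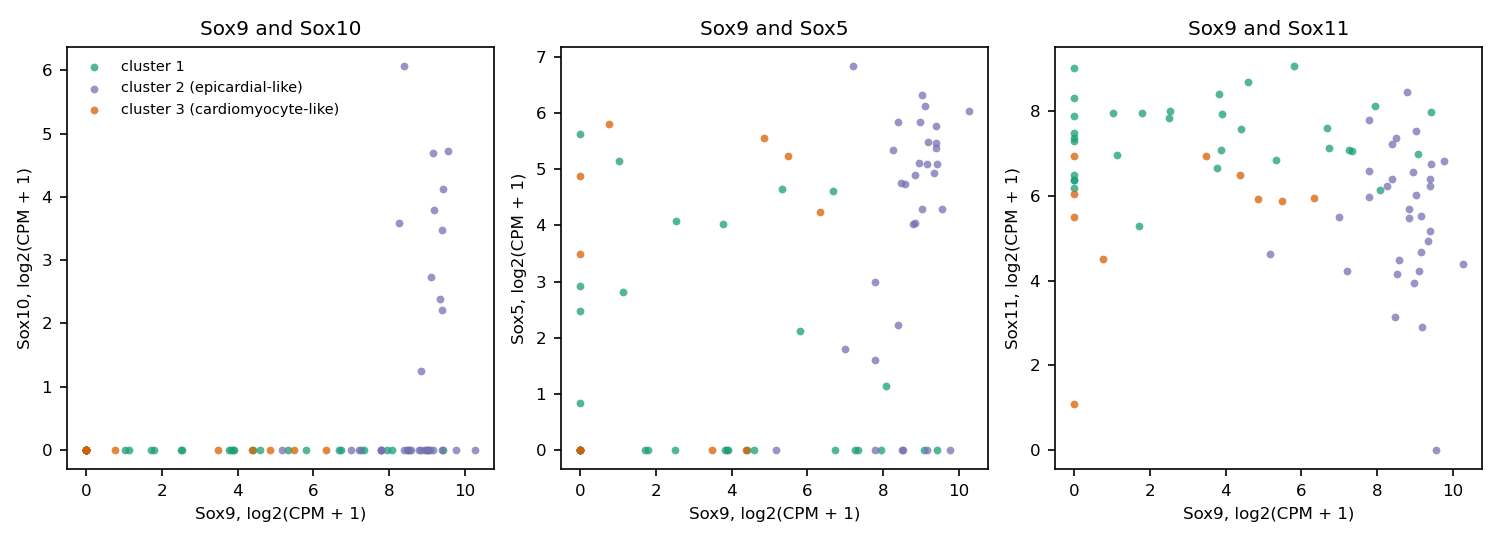
Sox9 on the horizontal axis against Sox10, Sox5 and Sox11 on the vertical axes, all as log2(CPM + 1), with 1 point per cell coloured by cluster. The 11 cells with any Sox10 count, of which 8 reached 5 counts, all lie at high Sox9, Sox5 spans both ends of Sox9, and Sox11 is high in many cells without Sox9.

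Sox8, the remaining SoxE gene, was detected in 23 of 74 cells with a mean of 8.21 ± 14.4 CPM. Cluster 2 held 15 of these cells, cluster 1 held 7 and cluster 3 held 1, and 22 of its 23 cells also had Sox9, against 16.8 expected. Inside cluster 2 its rank correlation with Sox9 was -0.03.

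Among the SoxD factors, Sox5 was higher in the epicardial-like cells and Sox6 was near the limit of detection. Sox5 (ENSMUSG00000041540, chromosome 6, 143828425 to 144781977, minus strand) was detected in 36 of 74 cells, or 48.6% (36.9 to 60.6%). The lowest, median and highest cells held 0, 27.4 and 113 CPM in cluster 2, 0, 0 and 48.8 in cluster 1, and 0, 14.0 and 55.0 in cluster 3, so the 3 ranges overlap. Its means were 29.7 ± 27.5, 5.77 ± 11.7 and 19.4 ± 21.0 CPM in the same order, and its detecting cells numbered 22 of 32, then 8 of 32, then 6 of 10. Cells with Sox9 had Sox5 about as often as independence gives, 28 cells against 26.3. The antisense gene Sox5os1 overlaps 1330 exonic bases of Sox5 and shares most of the 9.37% of its 31-base stretches found in other genes. It has no row in the count table, and Nextera XT libraries do not mark strand, so reads of the pair cannot be told apart.

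Sox6 (ENSMUSG00000051910, chromosome 7, 115470872 to 116038796, minus strand), a partner of Sox5 in cartilage and a repressor in striated muscle, was detected in 14 of 74 cells, 8 in cluster 2 and 3 in each of the others. Its highest cell, cell 11 of cluster 2, held 46.4 CPM. The means were 5.07 ± 10.03, 1.26 ± 4.19 and 5.41 ± 9.59 CPM in clusters 2, 1 and 3. Without the highest cell of each, the means of clusters 2, 1 and 3 were 3.73, 0.555 and 2.89 CPM. Sox5 and Sox6 were found together in 8 cells, against 6.81 expected. The third SoxD gene, Sox13, ran the other way. It was detected in 14 cells of cluster 1, in 7 of cluster 2 and in 2 of cluster 3, with means of 12.5 ± 17.7, 4.33 ± 7.87 and 7.51 ± 15.0 CPM.

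Of the SoxC factors, Sox11 was higher in cluster 1, while Sox4 and Sox12 had like levels in the 2 large clusters. Sox11 (ENSMUSG00000063632, chromosome 12, 27334264 to 27342574, minus strand, 1 exon) was detected in 71 of 74 cells. In cluster 1 the lowest, median and highest cells held 38.1, 172 and 537 CPM, in cluster 2 0, 47.8 and 349, and in cluster 3 1.14, 60.3 and 122. The ranges overlap, but 13 cells of cluster 2 lay below the lowest cell of cluster 1 and 3 lay above its median. Its means were 202 ± 123, 73.0 ± 74.4 and 64.4 ± 38.6 CPM, which put cluster 1 2.84-fold above all other cells.

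Sox4 (ENSMUSG00000076431, chromosome 13, 28948919 to 28953713, minus strand, 1 exon) was detected in all 74 cells, from 25.4 CPM to 922 CPM in cell 13 of cluster 3. Its means were 199 ± 152, 144 ± 86.5 and 232 ± 259 CPM in clusters 1, 2 and 3, and without cell 13 the mean of cluster 3 was 156 CPM. The lincRNA Gm26735 lies antisense to Sox4 over 2616 exonic bases, shares 54.7% of its 31-base stretches together with a few other genes, and has no row in the count table, so Sox4 levels are uncertain by an unknown part. Sox12 (ENSMUSG00000051817, chromosome 2, 152393611 to 152398063, minus strand) was detected in 62 cells, with means of 21.5 ± 18.3, 21.3 ± 12.7 and 12.4 ± 11.3 CPM. All 74 cells held at least 1 count of it.

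By a rule of size, a mean at least 2-fold above or below that of all other cells, 11511 genes detected in at least 10% of cells were compared. All 7 members were among them, Sox10 only through cluster 2, so its calls had to differ. Sox6 also met the limit, which is 8 cells, only through cluster 2. Of its 14 detecting cells 8 lay there and 3 in each other cluster. The calls of these 2 members are therefore no support. Cluster 2 was higher for 4 of 7 members, Sox5, Sox6, Sox9 and Sox10, where 5.12% of all genes were higher, and lower for Sox11, where 10.5% were lower. Cluster 1 was higher for 1 of 7, Sox11 (6.78% of all genes), and lower for the same 4 that were higher in cluster 2 (5.89%). Clusters 1 and 2 hold most cells and stand in each other's comparison group, so these counts are not separate. Cluster 3 was higher for 0 of 7 (8.29%) and lower for 3, Sox9, Sox10 and Sox11 (17.2%). No call is a test, since the clusters were made from the same cells. By differences of medians of log2(CPM + 1), 2 of the 4 members higher in cluster 2 stayed past the rule, Sox5 and Sox9. The call of Sox6 rests on 1 cell, since without cell 11 its mean in cluster 2 was 3.73 CPM against 2.25 in the other cells. It was also lost on thinned counts, with k-means, with 5 components and with a 3-fold rule, which each left 3 members, Sox5, Sox9 and Sox10.

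Per kilobase of exon, the mean CPM stood in the order Sox9 58.5 ± 67.3, Sox4 37.5 ± 31.2, Sox11 15.3 ± 13.8, Sox12 4.53 ± 3.45, Sox5 1.25 ± 1.65, Sox10 0.805 ± 2.95 and Sox6 0.234 ± 0.545 (SD over 74 cells). The order was the same with the longest transcript as the length. Sox9 and Sox4 did not separate, since Sox9 was above Sox4 per kilobase in 32 cells and below it in 42. Sox4 was above Sox11 in 61 of 74 cells, Sox11 above Sox12 in 59 and Sox12 above Sox5 in 63. Sox5 and Sox10 differed in mean by less than the SD of either, but Sox5 was above Sox10 in 37 cells and below it in 7. Sox10 was above Sox6 in 9 cells but below it in 22, so the higher mean of Sox10 rests on few cells. Single cells had between 2 and 7 of the members detected, with medians of 4, 5 and 4 in clusters 1, 2 and 3.

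**Figure D3:**
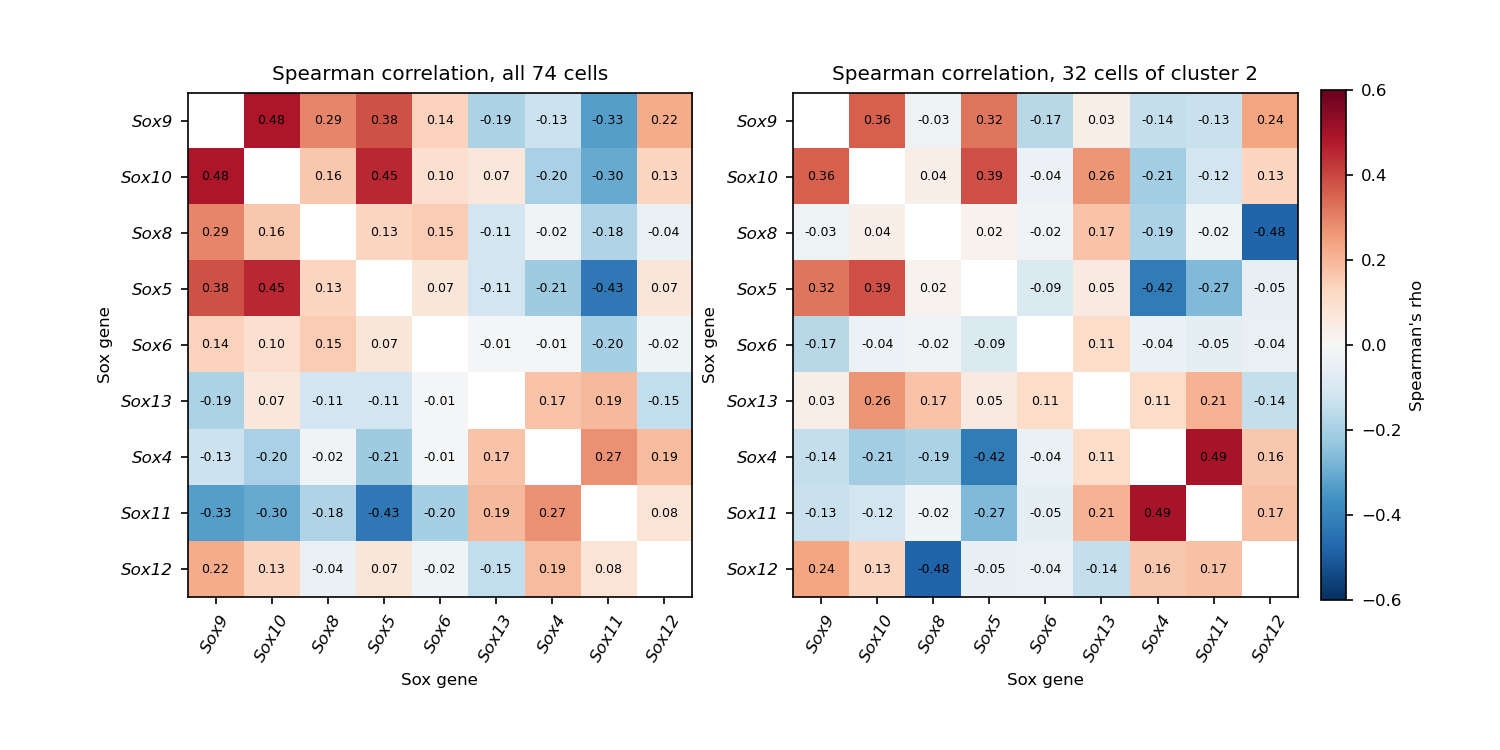
Spearman correlation between 9 Sox genes over all 74 cells (left) and over the 32 cells of cluster 2 (right), on a colour scale from -0.6 to 0.6 with the value in each square. Sox9, Sox10 and Sox5 are positive with each other in both panels, while the negative values of Sox11 with Sox9 and Sox5 are smaller within cluster 2.

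Sox9, Sox10 and Sox5 were positively correlated with each other across cells and negatively with Sox11, while Sox12 was weakly positive with members of either kind and Sox6 was near 0 with most. Over the 74 cells Spearman's rho was 0.48 between Sox9 and Sox10, 0.45 between Sox5 and Sox10 and 0.38 between Sox9 and Sox5, against -0.33 between Sox9 and Sox11 and -0.43 between Sox5 and Sox11. Within cluster 2 the positive values were 0.36, 0.39 and 0.32, and the negative ones -0.13 and -0.27. Within cluster 1, where no cell had a count of Sox10, the other signs turned, with -0.14 between Sox9 and Sox5, 0.10 between Sox9 and Sox11 and 0.02 between Sox5 and Sox11. Sox4 and Sox11 had a rho of 0.27 over all cells, 0.49 within cluster 2 and -0.08 within cluster 1. Points are cells of 1 preparation that differ in depth, and these values are descriptions. Sox9 had a rho of -0.12 with total counts.

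Genes were then ranked by Spearman correlation with Sox9 over the 74 cells, among 9804 genes detected in at least 20 cells. The 15 highest were Scx (0.77), Tmem108, Itga4, Aplp1, Prkcb, Ezr, Hid1, Thsd4, Stk26, Sdc4, Wt1, Sh3tc2, Tm4sf5, Bcar3 and Lrrn4 (0.71). Scx is a bHLH factor of tendon progenitors that marks part of the pro-epicardium, Itga4 is the integrin subunit with which epicardial cells attach, Ezr links apical membrane to actin, and Lrrn4 is a mesothelial membrane protein. Of the 15, 5 stand in the epicardial marker list. The 10 lowest were Vcan (-0.70), Rbm24, Csrp2, Adm, Ryr2, Capn6, Acaa2, Prrx2, Idh2 and Meis3 (-0.62). Vcan is the versican of cardiac jelly, Rbm24 a splicing factor of muscle and Ryr2 the calcium release channel of heart muscle. Genes at 0.5 or above numbered 118, or 1.2% of those ranked, and genes at -0.5 or below 59, or 0.602%. Sox11 had 21 (0.214%) and 10 (0.102%) such genes, and Sox5 had 7 (0.0714%) and 0.

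The ranks were then read within clusters. The mean log2(CPM + 1) of the epicardial list had a rho of 0.76 with Sox9 over all cells, 0.46 within cluster 1 and 0.15 within cluster 2. The median rho of the 15 was 0.73 over all cells, 0.28 within cluster 2 and 0.33 within cluster 1, with 13 and 15 of 15 above 0. Scx went from 11.3 ± 30.0 CPM in cluster 1 to 91.7 ± 77.7 in cluster 2 and was at 0 in cluster 3, and its rho was 0.43 within cluster 1 and 0.64 within cluster 2. Itga4 kept 0.57 within cluster 2 and Stk26, a kinase of the sterile-20 family, 0.54. Ezr, Prkcb and Thsd4, by contrast, had 0.04, -0.09 and -0.04 there.

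**Figure D4:**
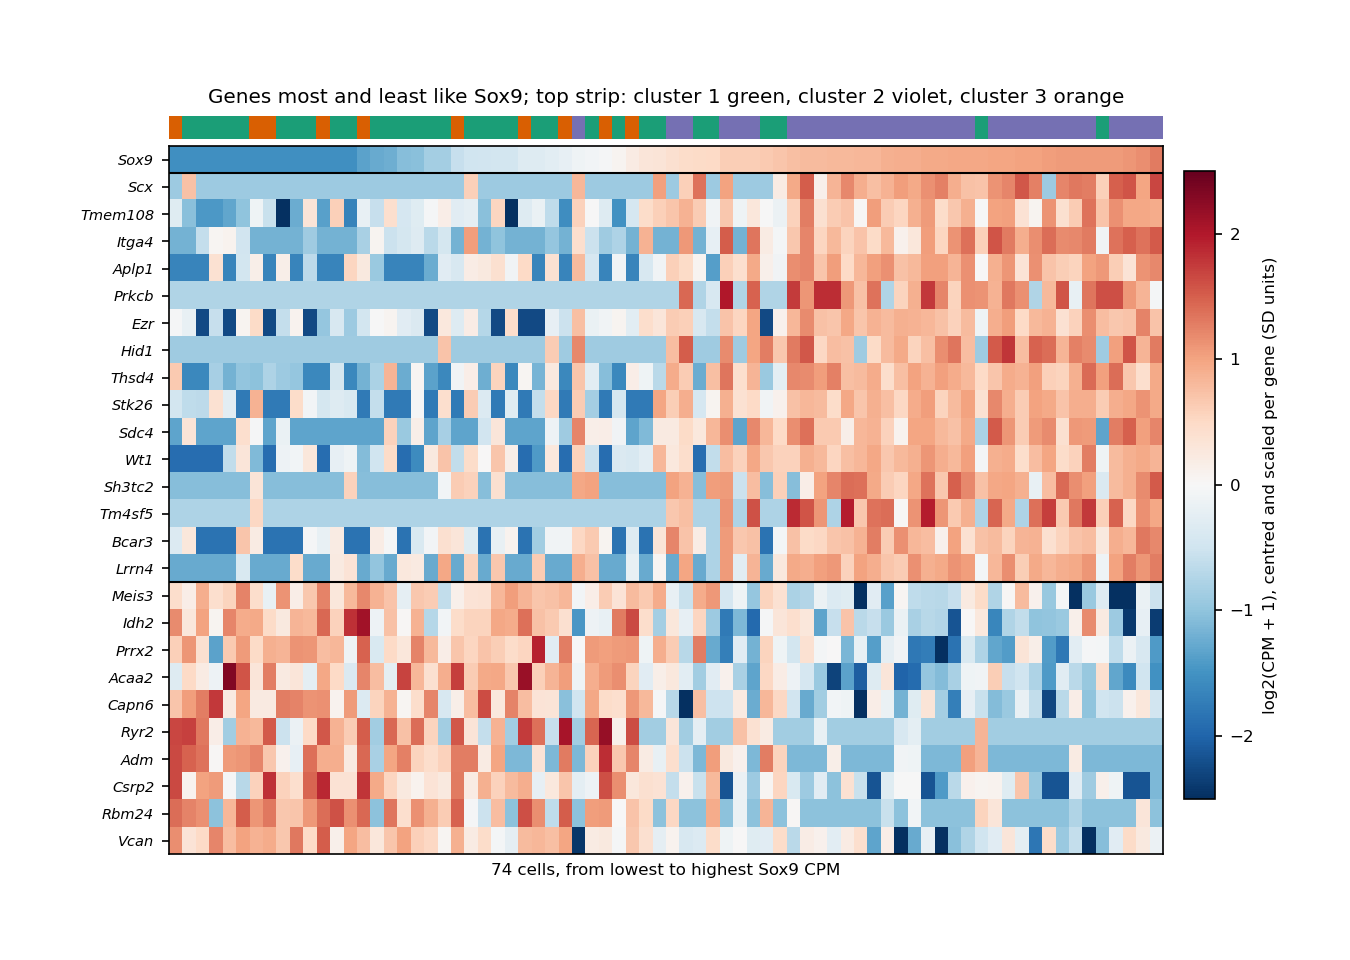
The 74 cells from lowest to highest Sox9 (columns) with the 15 genes of highest and the 10 of lowest Spearman correlation (rows), as log2(CPM + 1) centred and scaled per gene; the strip shows the cluster of each cell. Red blocks of the 15 genes begin where cluster 2 cells do, and a few cluster 1 cells at high Sox9 show lower values.

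Within the 32 epicardial-like cells, another set led. The highest of 9474 genes was Pdgfra, the PDGF receptor alpha of mesenchymal precursors, at 0.67, followed by Klf3, Cd164, Cog1, Scx (0.64), Arl8a, Hand2 (0.63), Lsm1, Spint2 and Ppp1r14b. Hand2 is a bHLH factor of heart and limb. Pdgfra was at 0 in the lowest cell, 115 CPM in the median and 389 CPM in the highest of cluster 2, and its mean of 136 ± 96.7 CPM was close to the 108 ± 68.7 of cluster 1, so over all 74 cells its rho was only 0.35. Within cluster 2 its rho was 0.64 without the 2 cells farthest from the Sox9 median, and 0.64 over 27 cells on counts thinned to 1 depth. Pearson correlation on log2(CPM + 1) gave 0.51 for Pdgfra and 0.44 for Scx. Pdgfra was picked as the highest of 9474 genes in these same cells, so such checks give no separate support. The median absolute rho of those genes was 0.14, and how high the top of so many genes would stand by chance was not tested. Hes1, a target of Notch, was the third lowest of the 9474 genes at -0.65, with 0, 15.3 and 210 CPM in the lowest, median and highest cell. The mitochondrial share of counts moved with Sox9 in these cells at a rho of 0.41 and with Hes1 at -0.51. With Itga4 that share stood at 0.40, with Hand2 at 0.19, with Pdgfra at 0.14 and with Scx at 0.05. The part of the mitochondrial share in these values was not tested. Within cluster 1 the leading genes were others, Tbrg1 (0.65), Creb5, Id1 (0.61), Clk3, Zfp704, 2610301B20Rik, Creb3l1, Fuca1, Psph and Herc4.

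**Figure D5:**
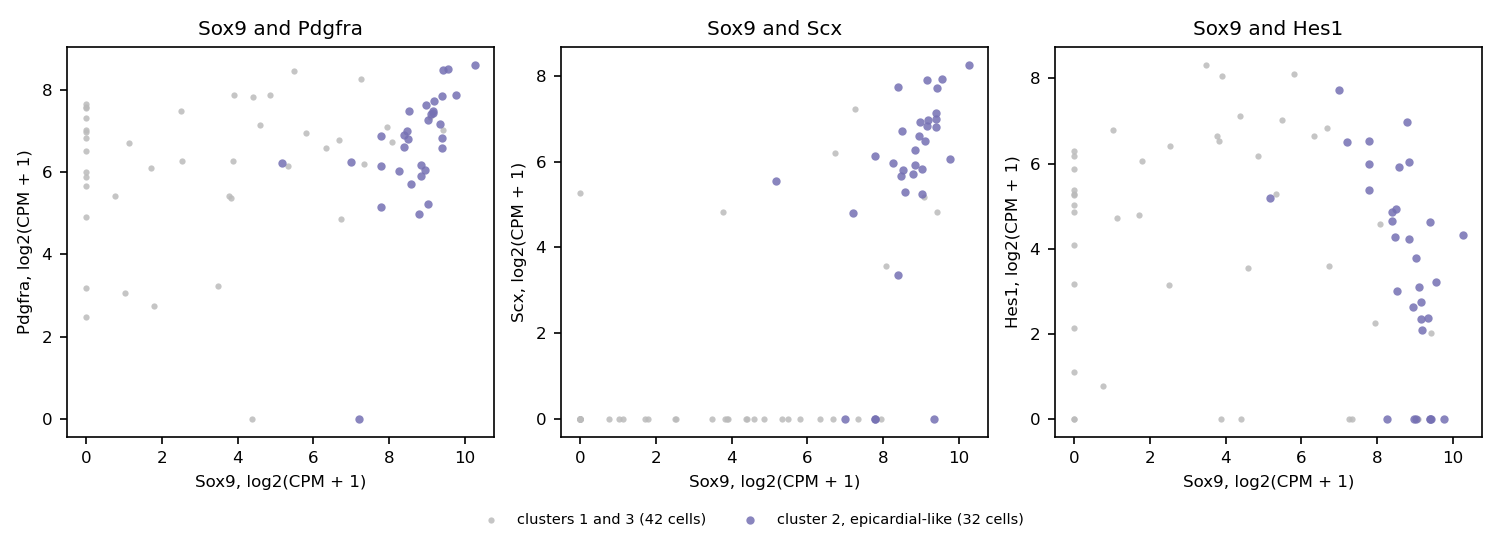
Sox9 on the horizontal axis against Pdgfra, Scx and Hes1 on the vertical axes, as log2(CPM + 1); violet points are the 32 cells of cluster 2 and grey points the other 42. Inside cluster 2, cells with more Sox9 mostly have more Pdgfra and Scx and less Hes1, while the grey cells show Pdgfra at all levels of Sox9.

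Sox10 and Sox6, detected in 8 and 14 cells, fell short of the 20 cells set for naming close genes, and their highest rho was 0.66 and 0.45. For the other remaining members the closest genes were also weaker matches than for Sox9. With Sox11 they were H2afv (0.61), Stmn1, Dennd1a, F2r and Shisa3, of which Stmn1 destabilises microtubules in dividing progenitors, and with Sox5 they were Map3k4 (0.62), Hid1, Mmp28, Tubb3 and Ctsf. Map3k4 kept 0.64 and Hid1 0.64 with Sox5 within cluster 2. Sox4 reached 0.46 (Mbtd1) and Sox12 0.41 (Hmgn1). Within clusters 1 and 2, Mbtd1 had 0.41 and 0.51 with Sox4, and Hmgn1 had 0.43 and 0.28 with Sox12. Whether such top values exceed what chance gives among so many genes was not tested.

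Gene lists around the Sox factors were read by the median rho of their members with Sox9, beside 0.02 over all 9804 genes. The list of reported SOX9 cartilage targets had 16 genes in the table, 11 of them detected in any cell, and 4 ranked with a median of 0.10. Hapln1, the hyaluronan link protein, stood at 0.68, with 214 ± 185 CPM in the epicardial-like cells, against 24.6 for cluster 1 and 2.12 for cluster 3, but within cluster 2 its rho was -0.00. Of 8 genes compared, 4 were past 2-fold higher in cluster 2 (Hapln1, Wwp2, Fgfr3 and Col9a3), where 5.12% of all genes were. Fgfr3 and Col9a3 met the limit of 10% of cells only through cluster 2, so their calls are no support. Fgfr3 was detected in 4, 13 and 1 cells of clusters 1, 2 and 3, and Col9a3 in 3, 10 and 0. In the same cluster 2 were past 2-fold lower (Col9a1 and Col11a1), where 10.5% of all genes were. In cluster 3 all 8 were past 2-fold lower, where 17.2% of all genes were. Col2a1, the main cartilage collagen, stood at -0.00 and passed the rule in neither direction for clusters 1 and 2. It had 18.7 ± 18.9 CPM in cluster 2 (21 of 32 cells) and 28.9 ± 45.1 in cluster 1 (15 of 32 cells). Acan, Comp, Matn1, Cnmd and Snorc were detected in 0 cells. For each of these 5 genes up to 4.05% of cells could hold it.

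Over all 9804 genes ranked, 1.2% had a rho of 0.5 or more with Sox9. Of 17 epicardial markers ranked, 11 did, with a median of 0.59, and of 13 pro-epicardial regulators 5 did, with a median of 0.37. Of 7 Hippo genes ranked, 2 did, Ccn2 (0.63), a matricellular target of the pathway, and Wwtr1 (0.57), its coactivator TAZ. Within clusters 1 and 2 their values were 0.28 and 0.26 for Ccn2 and 0.00 and 0.13 for Wwtr1. Of 6 Notch genes, Hey1 did (0.60, with 0.42 within cluster 1 and 0.47 within cluster 2). Among 4 PDGF genes none did, and Pdgfrb stood at -0.47. Among 5 FGF genes Fgfr1 stood at -0.55. Of 9 epithelial-to-mesenchymal transition genes 1 reached 0.5, Tcf21 (0.59), while Twist2 stood at -0.42. The 3 ranked SoxC targets had a median of -0.21 with Sox9 and 0.21 with Sox11; among them Tubb3, a neuronal tubulin reported as a Sox11 target, stood at 0.66 with Sox9 and -0.40 with Sox11 and was 224 ± 310 CPM in cluster 2 against 13.1 in cluster 1. The 34 cell cycle genes had a median of 0.06 and none passed 0.5 in either direction. The cardiomyocyte markers had a median of -0.39 and the smooth muscle markers -0.47.

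Of the other Sox genes, Sox2 and Sox30 were detected in 2 cells each and Sox17 in 1, and Sox1, Sox3, Sox7, Sox14, Sox15, Sox18 and Sox21 in 0 of 74, which allows up to 4.05% of cells for each.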

How the data were processed

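Each of the 74 cells has 1 column of estimated counts, deposited by the authors without scaling. Per the submitters' processing notes kallisto was used, with no version named. The notes name the human build hg38, but all 30323 gene identifiers are mouse Ensembl IDs. The deposited counts are whole numbers. No source used here says how transcripts were summed or values rounded. Of the identifiers 29857 matched GENCODE M21 or its name table, and the 466 others held 0.357% of counts.

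Counts were scaled to CPM. Of 12295 genes at 5 or more counts in at least 5 cells, Sox genes left out, the 1000 most variable above a lowess trend (fraction 0.3) on log2(CPM + 1) gave 10 principal components, cut into 3 clusters by Ward's method. All 74 cells held at least 1000 genes and none was removed. Doublets were not called, since each library is 1 sorted cell. Thinning drew 354002 counts per cell and left out 8 cells. Intervals are exact (Clopper-Pearson, 95%). Upper limits given for genes found in 0 cells are instead 3 divided by the number of cells, an approximation. For 0 of 74 cells the upper end of the exact interval was 4.86%. The labels' 1 sample allows no test and no separate replicates.

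The members and gene lists were chosen with earlier results of these data known. Named genes are the 7 members, other Sox genes, the 15 highest and 10 lowest genes for Sox9, the 5 highest for other members detected in 20 or more cells, the 10 highest within each large cluster, and, of each list, genes taken from the 3 most abundant and those past 2-fold, of which only some are printed. Erbb3, Mbp, Ednrb, and the single cells of extreme Sox9 were read as members of lists or after their values were seen. Many listed genes are not reported here. Further lists, for hedgehog, BMP, beta-catenin, endothelial, erythroid, hepatoblast and leukocyte genes, held 0 ranked genes at 0.5 or more with Sox9. The clustering and ranking steps were also run on simulated counts with planted groups and planted correlated genes. Those runs exercised the steps only and are not used as support for any result here. Tools were scikit-learn 1.9.0, SciPy 1.17.1, statsmodels 0.14.6 and pandas 2.3.3 in Python 3.11.15, and scran 1.30.0 in R 4.3.3. Alternatives included other thresholds, size factors, numbers of genes, components and clusters, and thinned counts.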

Additional observations from a re-analysis of the deposited data

How the results depend on the processing

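Detection of Sox6, Sox12 and Sox10 depended on the threshold. Sox6 was detected in 33.8% of cells at 1 count, 9.46% at 10 counts and 6.06% after thinning, and Sox12 in 100%, 59.5% and 66.7%. Sox10 was detected in 14.9%, 5.41% and 7.58%, against 10.8% at 5 counts, and only with Sox9 at each of these settings. The mean of Sox9 in cluster 3 was 73.6 CPM with 500 variable genes and 62.9 CPM with 2 clusters, where it takes in cells of cluster 1. Among the 2-fold calls, the number higher in cluster 1 was 0 with a 3-fold rule, 500 variable genes or 4 clusters, and the number lower in cluster 2 was 0 with a 3-fold rule. By medians of log2(CPM + 1), the number lower in cluster 1 was 2 and the number higher in cluster 2 was 2. The number higher in cluster 3 was 1 with a 1.5-fold rule, by medians, on thinned counts and with 2 clusters. Of the 15 genes most like Sox9, 9 remained with Pearson correlation on log2(CPM + 1), 1 within cluster 2 and 0 within cluster 1. Settings chosen after seeing the data, for 6 genes within cluster 2, changed the sign of no correlation with Sox9, and the means without a cluster's highest cell were also chosen after seeing the data. No paired analysis was possible because the 74 cells form 1 group and no test was made.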
